A study of Mus musculus with 12 samples.

Results

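YAP (Yap1) and its paralog TAZ (Wwtr1), the TEAD factors Tead1, Tead2, Tead3 and Tead4, and the TEAD cofactor Vgll4 were followed at the RNA level across mouse pancreatic acini and 2 kinds of duct organoid. Every probe set that the array platform's annotation gave to one of these 7 genes alone was taken. This found 12 of the 45101 probe sets of the array. No probe set of these genes was picked by its values, but the 7 genes were chosen with earlier results of these data known. Yap1 had 2 probe sets, Wwtr1 3, Tead1 2, Tead4 2, and Tead2, Tead3 and Vgll4 1 each. All 12 passed the filter on low intensities. A probe set is a group of short probes against one transcript, and its value is a log2 intensity, so a difference of 1 is a doubling of signal and levels of different probe sets cannot be ranked against each other.

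The series held 12 arrays in 3 groups of 4, which the labels call biological replicas A to D. Acini were exocrine tissue of the mouse pancreas taken for RNA when freshly isolated. Ducts were organoids grown from native pancreatic ducts. yDucts were organoids that had started as acini of R26-rtTA; tetO-YAP S127A mice, in which doxycycline switches on a YAP that escapes Hippo phosphorylation at the mutated serine, and these cells had received a pulse of doxycycline and were then passaged without it. Both kinds of organoid lay in Matrigel under the same medium, Advanced DMEM/F12 with B27, N-acetylcysteine, gastrin, EGF, Noggin, FGF10, nicotinamide and R-Spondin1. The rtTA of this design is driven from the Rosa26 locus and so is not limited to acinar cells. The genotype of the mice behind the Acini and Ducts arrays, and whether the letters stand for separate animals, were not stated, so p-values measure the spread between arrays. Fresh tissue and culture cannot be told apart from the cell type in any comparison with Acini, and fewer cells of a type cannot be told apart from less RNA per cell.

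In the Hippo pathway the kinases MST and LATS phosphorylate YAP and TAZ and hold them out of the nucleus. Unphosphorylated YAP and TAZ enter the nucleus, where they have no DNA binding of their own and act through the TEAD proteins, which bind DNA. VGLL4 competes with them for TEAD. In the adult pancreas YAP protein is known from ducts and centroacinar cells rather than from acinar cells, and most of the pathway's control is on protein, which arrays do not measure.

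The promoters of Yap1, Wwtr1 and Tead2 are shown, as the coactivator pair and the TEAD gene with the largest fall, with the TEAD core (GGAATG on one strand, CATTCC on the other) marked. Each is the 250 bases before a RefSeq start in GRCm38.p6, 5′ to 3′ on the gene's strand, with a core in capitals. They are Yap1 (chr9:8004597-8004846, minus strand), Wwtr1 (chr3:57575911-57576160, minus strand) and Tead2 (chr7:45215542-45215791, plus strand).
Yap1: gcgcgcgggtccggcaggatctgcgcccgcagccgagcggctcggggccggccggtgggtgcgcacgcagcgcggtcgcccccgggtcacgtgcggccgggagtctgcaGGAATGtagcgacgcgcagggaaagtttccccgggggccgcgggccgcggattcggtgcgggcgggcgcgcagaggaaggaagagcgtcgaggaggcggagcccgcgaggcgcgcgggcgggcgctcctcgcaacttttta
Wwtr1: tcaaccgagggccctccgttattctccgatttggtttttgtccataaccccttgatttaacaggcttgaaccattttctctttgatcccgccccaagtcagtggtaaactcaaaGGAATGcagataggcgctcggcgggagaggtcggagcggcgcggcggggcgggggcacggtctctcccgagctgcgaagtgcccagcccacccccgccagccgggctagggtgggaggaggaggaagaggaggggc
Tead2: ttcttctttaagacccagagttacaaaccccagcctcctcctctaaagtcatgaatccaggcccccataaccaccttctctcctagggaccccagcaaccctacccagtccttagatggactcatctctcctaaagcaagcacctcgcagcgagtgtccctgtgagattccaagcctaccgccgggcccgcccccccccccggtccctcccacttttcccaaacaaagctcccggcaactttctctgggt
The Yap1 window held 1 core, 141 bases before the start, and the Wwtr1 window shown held 1, 136 bases before it, and these letters were not in the Tead2 window. The window before another Wwtr1 start held 1 core, 170 bases before that start. Tead1 and Tead4 had no window among the sequences used, so their promoters were not read. Cores were also found for genes that were not called as deposited, with 1 in the Vgll4 window and with 1, 2 and 0 in the windows before the 3 starts of Tead3. Of all 32851 RefSeq windows of this length, 12.6% held a core on either strand, so a match is a description of the sequence and not a site.

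Organoids and acini differed over most of the array, and some measures of the arrays moved with that difference. The 30th percentile of intensity was 3.72 ± 0.06 in Acini, 3.21 ± 0.02 in Ducts and 3.20 ± 0.01 in yDucts (log2, SD, n = 4 each). The 3′ minus 5′ difference of the Gapdh controls, a sign of RNA integrity, was 1.29 to 1.91 in Acini, -0.07 to 0.02 in Ducts and -0.17 to -0.12 in yDucts. Mean acinar marker intensity was 13.2 to 13.3 in Acini, 3.25 to 3.64 in Ducts and 3.63 to 3.79 in yDucts, and 4 of 6 duct markers were higher in both organoids. Sox9 and Cftr were not called in either. Array means of the duct markers were 6.17 to 6.52 in Acini, 8.49 to 10.9 in Ducts and 9.1 to 9.7 in yDucts. All 8 endothelial markers were lower in both organoids (array means 6.44 to 6.89 in Acini against 3.80 to 4.0 in Ducts and 3.84 to 3.95 in yDucts), with Pecam1, Cdh5, Emcn and Tie1 below background there. Below background means a group mean under that group's own 30th percentile, so this level was higher in Acini than in the organoids. All 9 stromal markers were lower in Ducts (7.06 to 7.74 against 3.39 to 3.56), and 8 of 9 in yDucts (4.12 to 4.33), and Col3a1, Pdgfra and Lum were below background in both. The exception, Vim, was 10.50 ± 0.67 in yDucts and 3.62 ± 0.30 in Ducts. Of the immune markers 6 of 7 tested were lower in both organoids, and so were all 6 endocrine markers. The immune exception, Cd68, was called higher by 1.41 in Ducts and 1.265 in yDucts, and was below background in Acini. Over all genes tested, 42.4% were higher and 32.9% lower in Ducts, and 43.4% were higher and 32.3% lower in yDucts. The part of other cell types and of RNA integrity in the differences from Acini was not tested. Ducts C and Ducts D lay close to each other (root mean square difference 0.27) and apart from Ducts A and B (0.64 to 0.80), while Ducts A and B differed by 0.53 and the array nearest to Ducts A was yDucts C (0.47). Leaving out either pair left 7 of the 8 calls for Ducts against Acini and all 8 for yDucts against Acini.

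Against Acini, 7 of the 12 member probe sets were higher and 1 lower in Ducts, and 7 were higher and 1 lower in yDucts (limma, Benjamini-Hochberg adjusted over all probe sets tested). Yap1, Wwtr1, Tead1 and Tead4 held all the higher ones, and Tead2 was the lower one in both. Across the 33436 probe sets tested 40.0% were higher and 31.2% lower in Ducts, and 39.7% were higher and 31.6% lower in yDucts. With so much of the array called, the counts say little about the members, and the size and sign of each difference are given below. The median difference of all probe sets was 0.16 in Ducts and 0.13 in yDucts as deposited, and quantile normalization and cyclic loess brought it to about 0.

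**Figure D1:**
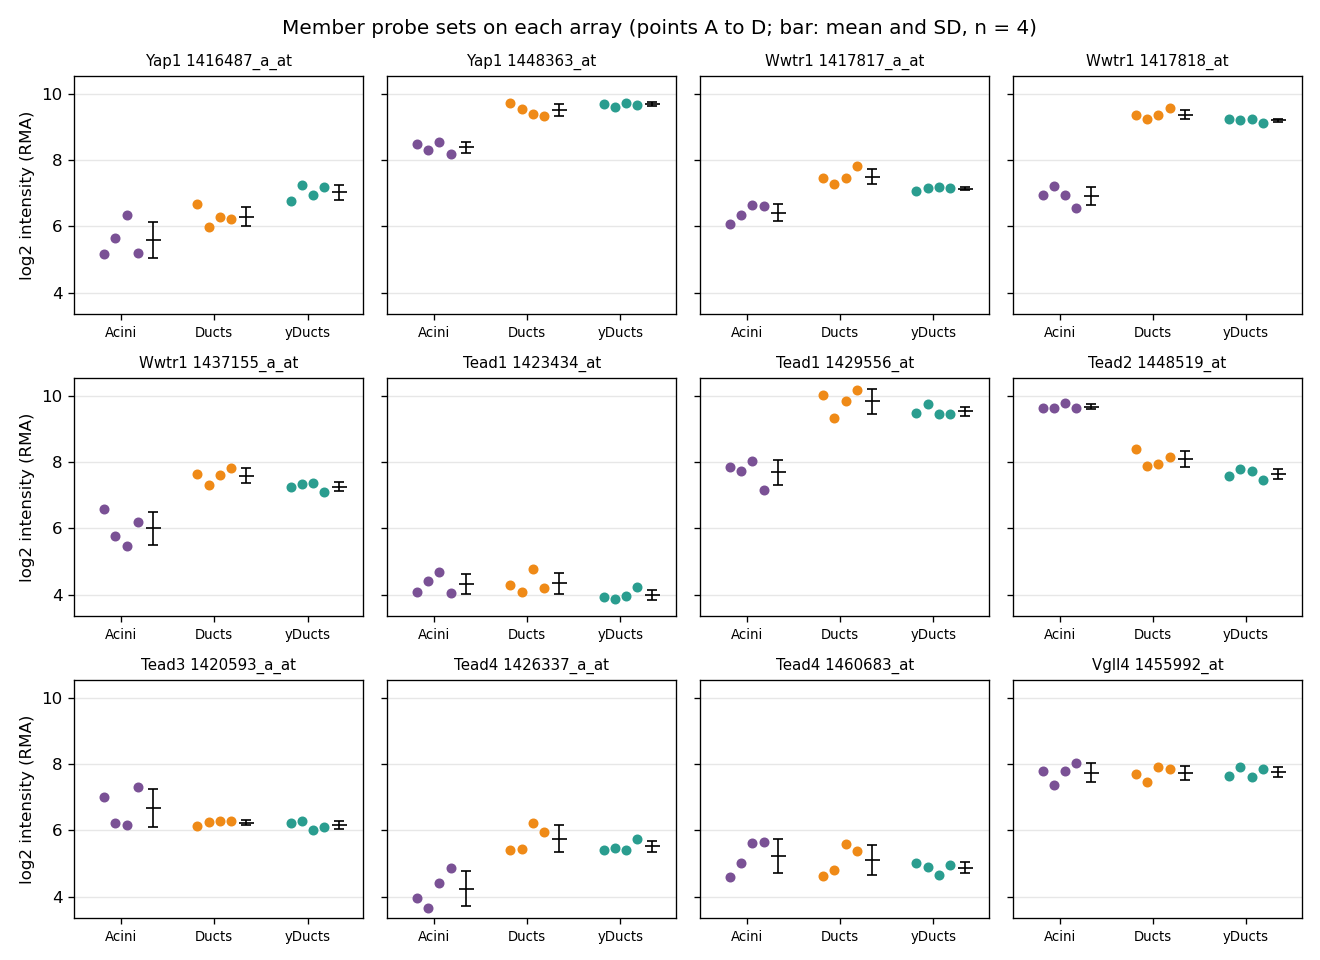
Log2 intensity of the 12 member probe sets (y axis) on each of the 4 arrays of Acini, Ducts and yDucts (points, A to D from left), with mean and SD beside them. Wwtr1 1417818_at and Tead1 1429556_at sit lower on all Acini arrays than on all organoid arrays, and Tead2 sits higher on all Acini arrays.

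Yap1 encodes YAP, the coactivator whose active form made the yDucts. By its brighter probe set, 1448363_at, the Acini arrays A to D read 8.47, 8.30, 8.55 and 8.19, the Ducts arrays 9.73, 9.54, 9.38 and 9.33, and the yDucts arrays 9.70, 9.59, 9.73 and 9.67. All organoid arrays lay above all Acini arrays. The difference was 1.12 ± 0.14 (SE) for Ducts and 1.30 ± 0.14 for yDucts (limma, adjusted p = 1.28e-05 and 3.30e-06). The second probe set, 1416487_a_at, read 5.17, 5.64, 6.33 and 5.18 in Acini, 6.66, 5.98, 6.28 and 6.23 in Ducts, and 6.76, 7.25, 6.93 and 7.18 in yDucts. Here Acini C lay among the Ducts arrays, and only the yDucts stood clear of Acini, by 1.45 ± 0.25 (limma, adjusted p = 0.000167), against 0.71 ± 0.25 for Ducts (adjusted p = 0.0211). The Ducts call ended without Acini A, Acini D or Ducts A (adjusted p = 0.0636, 0.0653 and 0.0651), and without either pair of Ducts arrays (0.0622 and 0.0648). Whether either probe set reads the transgene's RNA is not given.

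The rise of Yap1 in Ducts depended on the scaling. Centring each array on its median kept it, at 1.33 for 1448363_at and 0.92 for 1416487_a_at (limma, adjusted p = 2.70e-06 and 0.00613). With quantile normalization 1448363_at differed by 0.24 (limma, adjusted p = 0.161) and 1416487_a_at by 0.28 (adjusted p = 0.410), and with cyclic loess they differed by -0.01 and -0.01. For yDucts 1448363_at kept 0.43 with quantile normalization (adjusted p = 0.0208) and 0.17 with cyclic loess (adjusted p = 0.325), while 1416487_a_at stayed called at 0.92 and 0.73.

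Wwtr1 encodes TAZ, the second coactivator. Its probe set 1417818_at read 6.95, 7.20, 6.93 and 6.56 in Acini, 9.34, 9.23, 9.34 and 9.56 in Ducts, and 9.23, 9.20, 9.23 and 9.12 in yDucts. A gap of 1.92 lay between the highest Acini array and the lowest organoid array. In linear terms the signal was 5.49-fold higher in Ducts and 4.87-fold higher in yDucts (2.46 ± 0.15 and 2.29 ± 0.15 on the log2 scale; limma, adjusted p = 2.19e-08 and 4.11e-08). The call held with quantile normalization (1.58 and 1.40) and with cyclic loess (1.35 and 1.17). The probe sets 1437155_a_at and 1417817_a_at were also higher, by 1.60 and 1.08 in Ducts and by 1.26 and 0.72 in yDucts, with no overlap between Acini and organoid arrays. In Ducts 1437155_a_at stayed called under both scalings, whereas 1417817_a_at lost its call with quantile normalization (0.24, limma, adjusted p = 0.220) and with cyclic loess (0.15, adjusted p = 0.397). In yDucts 1437155_a_at fell short of the threshold with quantile normalization and cyclic loess (0.51 and 0.34), and 1417817_a_at turned to -0.12 and -0.21. All 3 probe sets of Wwtr1 thus rose in both organoids as deposited, and 1417818_at alone stayed called under each of these scalings in both comparisons.

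Tead1, one of the 4 DNA-binding partners, also rose. Its probe set 1429556_at read 7.86, 7.72, 8.02 and 7.15 in Acini, 10.01, 9.31, 9.83 and 10.17 in Ducts, and 9.48, 9.74, 9.44 and 9.43 in yDucts. Every organoid array was above every Acini array. The rise was 4.42-fold in Ducts and 3.57-fold in yDucts (2.14 ± 0.22 and 1.84 ± 0.22; limma, adjusted p = 1.73e-06 and 6.84e-06), and it was 1.27 and 0.95 with quantile normalization and 1.02 and 0.71 with cyclic loess, called each time. The other Tead1 probe set, 1423434_at, was dim in all groups (means 4.31, 4.34 and 4.0) and was not called in any comparison as deposited. With cyclic loess its difference in Ducts was 0.51 and was called higher (limma, adjusted p = 0.0411).

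Tead2, the TEAD gene best known from embryonic tissue, went the other way. It read 9.64, 9.62, 9.77 and 9.63 in Acini, 8.38, 7.87, 7.94 and 8.15 in Ducts, and 7.57, 7.80, 7.73 and 7.46 in yDucts. The Acini arrays were the highest 4 of the 12 and spanned 0.15. Tead2 was 2.99-fold lower in Ducts and 4.07-fold lower in yDucts (-1.58 ± 0.15 and -2.03 ± 0.15; limma, adjusted p = 8.96e-07 and 9.59e-08). Quantile normalization and cyclic loess gave larger differences, of -2.40 and -2.69 in Ducts and -2.85 and -3.14 in yDucts. Since endothelial and stromal markers fell too, the cells that carried the Tead2 signal in Acini cannot be told from these arrays.

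Tead4 gave a divided answer. Its probe set 1426337_a_at read 3.96, 3.67, 4.42 and 4.87 in Acini, 5.39, 5.42, 6.23 and 5.95 in Ducts, and 5.41, 5.47, 5.41 and 5.75 in yDucts, a rise of 1.52 and 1.28 that was called (limma, adjusted p = 0.000160 and 0.000626). The highest Acini array was below the lowest organoid array, and 3 of the 4 Acini arrays were above their 30th percentile. The second probe set, 1460683_at, overlapped between all groups (4.59 to 5.65 in Acini, 4.63 to 5.59 in Ducts, 4.64 to 5.02 in yDucts) and was not called, at -0.12 and -0.34. Averaged over both probe sets, Tead4 rose by 0.70 in Ducts (adjusted p = 0.0221) and its difference in yDucts was 0.47 (adjusted p = 0.105).

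Tead3 read 7.0, 6.22, 6.17 and 7.29 in Acini, 6.13 to 6.28 in Ducts and 6.0 to 6.28 in yDucts. Acini A and D stood above every organoid array, while Acini B and C lay among them. The difference of -0.44 in Ducts and -0.52 in yDucts missed the threshold (limma, adjusted p = 0.0988 and 0.0552). It passed without Acini B (-0.59 and -0.67) or Acini C (-0.60 and -0.68), and with quantile normalization (-1.18 and -1.28) and cyclic loess (-1.18 and -1.26). In yDucts it also passed, at adjusted p = 0.0490, in the fit on the mean of each gene's probe sets.

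Vgll4, which competes with YAP and TAZ for TEAD, read 7.78, 7.37, 7.78 and 8.03 in Acini, 7.69, 7.46, 7.91 and 7.84 in Ducts, and 7.65, 7.90, 7.60 and 7.84 in yDucts. The 3 groups overlapped throughout. The difference was -0.02 in Ducts, with a 95% interval of -0.38 to 0.35, and 0.01 in yDucts, with an interval of -0.36 to 0.37. With quantile normalization Vgll4 differed by -0.89 in both organoids, and with cyclic loess by -1.06 and -1.04, and these were called lower.

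**Figure D2:**
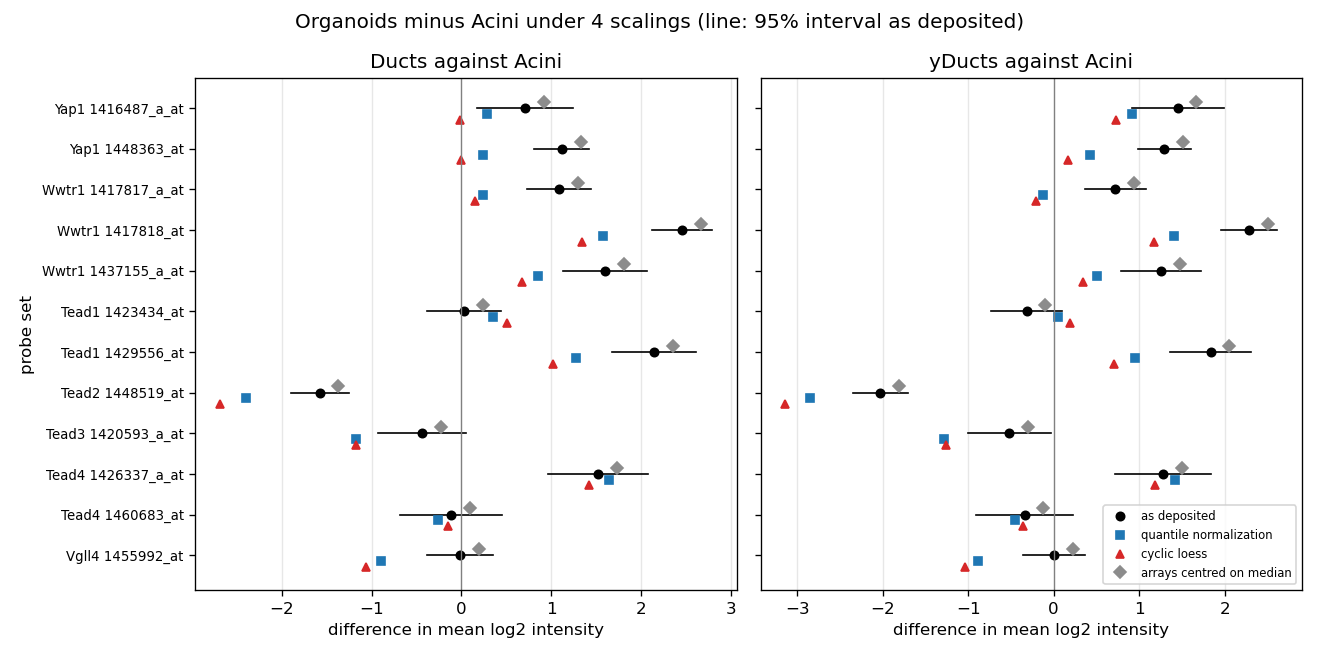
Difference in mean log2 intensity from Acini (x axis) for the 12 member probe sets in Ducts and yDucts, as deposited with its 95% interval, and under 3 other scalings. Wwtr1 1417818_at, Tead1 1429556_at and Tead4 1426337_a_at stay to the right of 0 and Tead2 to the left, while Yap1 1448363_at moves from 1.12 to -0.01 in Ducts.

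A difference between 2 probe sets on the same array does not carry a shift that all probe sets of the array share, so 4 such differences were compared between groups. Their zero has no meaning, since probe sets differ in brightness, and the change between groups is the result. Tead2 minus Tead1 was 1.98 ± 0.34 in Acini, -1.75 ± 0.26 in Ducts and -1.88 ± 0.12 in yDucts (SD, n = 4 arrays). The organoids thus lay 3.72 and 3.86 below Acini, with no overlap, and these changes were -3.67 and -3.80 with quantile normalization and -3.71 and -3.85 with cyclic loess. Tead3 minus Tead1 fell by 2.58 and 2.35, from -1.02 ± 0.87 in Acini. Wwtr1 minus Yap1 was -1.47 ± 0.25 in Acini, -0.13 ± 0.28 in Ducts and -0.48 ± 0.07 in yDucts, so that Wwtr1 gained 1.34 on Yap1 in Ducts and 0.99 in yDucts. That gain depended on the probe sets, as it was 0.80 and 0.05 with all probe sets of each gene averaged. The same averaging made the other falls smaller. Tead2 minus Tead1 then changed by -2.66 in Ducts and -2.785 in yDucts, and Tead3 minus Tead1 by -1.52 and -1.28. Tead4 minus Tead1 overlapped between the groups.

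Of the 12 tests of these within-array differences, 6 reached p = 0.0286 in a two-sided exact permutation test, which is the smallest that 4 against 4 arrays allow, and none passed after adjustment (adjusted p = 0.0571). These were the Wwtr1, Tead2 and Tead3 differences in both comparisons with Acini. With quantile normalization 7 passed, at adjusted p = 0.0490, the added one being Wwtr1 minus Yap1 between yDucts and Ducts.

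**Figure D3:**
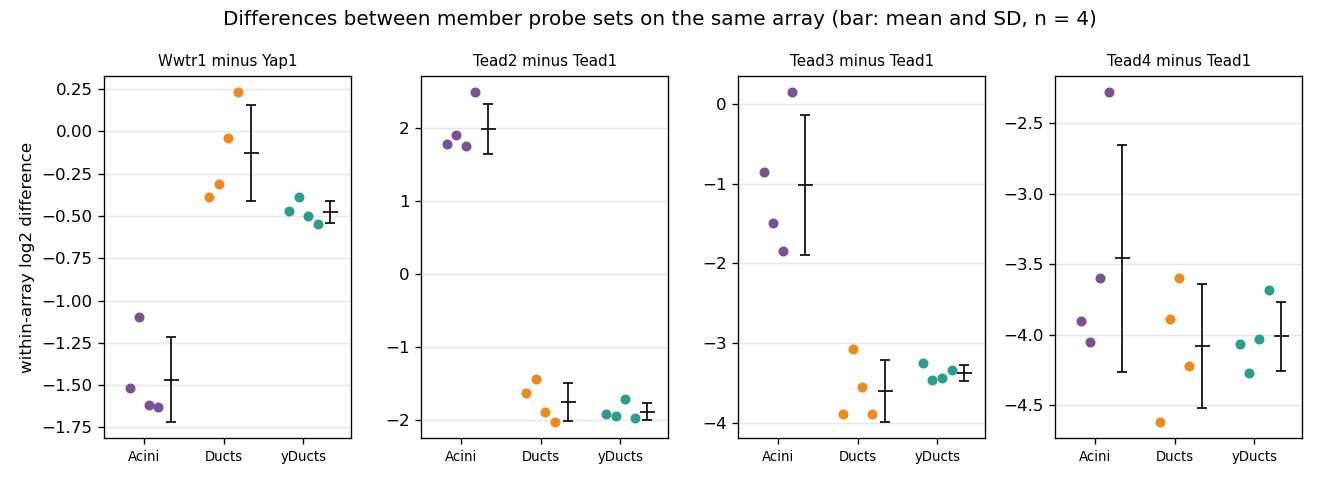
Log2 difference between 2 member probe sets on the same array (y axis) for 4 arrays in each group (points), with mean and SD. Tead2 minus Tead1 is 1.98 on average in Acini and -1.75 and -1.88 in Ducts and yDucts, with no overlap.

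Between the organoids made by YAP and those from native ducts, 0 of the 12 member probe sets passed (limma), and 3 had an unadjusted p under 0.05. Among all probe sets tested, 1.57% were higher and 0.757% lower in yDucts at the adjusted threshold. The shares of all probe sets with an unadjusted p under 0.05, or with no overlap between the groups, were not counted. Member counts of these kinds thus have no background here. For Yap1 1448363_at the difference was 0.18, with a 95% interval of -0.13 to 0.49, and for Wwtr1 1417818_at it was -0.17, with an interval of -0.50 to 0.16. The Yap1 probe set 1416487_a_at differed by 0.74 (0.21 to 1.28; limma, adjusted p = 0.175), with all 4 yDucts arrays above all 4 Ducts arrays. Tead2 differed by -0.45 (-0.77 to -0.12; adjusted p = 0.179) and Wwtr1 1417817_a_at by -0.36 (-0.72 to -0.01; adjusted p = 0.368), again with no overlap between the groups. Tead1 1429556_at differed by -0.31 (-0.78 to 0.16), Tead4 1426337_a_at by -0.24 (-0.80 to 0.32), Tead3 by -0.08 (-0.57 to 0.41) and Vgll4 by 0.02 (-0.34 to 0.39). These intervals leave room for modest differences, and the missed threshold does not show that the organoids are alike. Weighting the arrays by their quality raised the calls over all 33436 probe sets tested from 777 to 11754, of which 46.6% were higher. It called 9 of the 12 members, 2 higher (both Yap1 probe sets) and 7 lower.

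**Figure D4:**
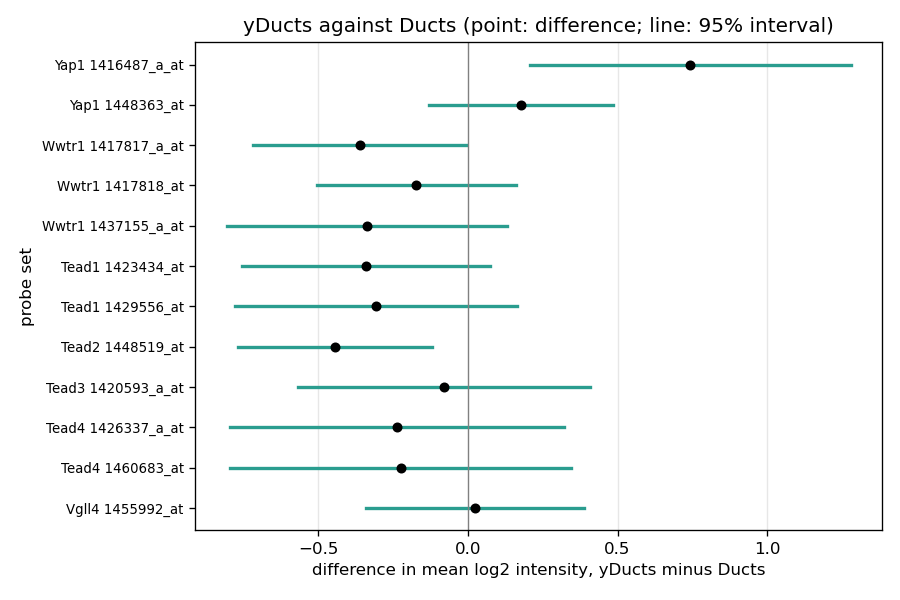
Difference in mean log2 intensity, yDucts minus Ducts (x axis), for the 12 member probe sets, with 95% intervals. The intervals of Yap1 1416487_a_at, Wwtr1 1417817_a_at and Tead2 leave out 0, and no probe set passed after adjustment.

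The genes around the members were read from lists, with the brightest probe set of each gene. These lists too were chosen with earlier results of these data known. Of 21 Hippo kinases and regulators tested, 16 were higher and 2 lower in Ducts, and 15 were higher and 2 lower in yDucts, with medians of 1.74 and 1.57. Over all genes tested 42.4% were higher and 32.9% lower in Ducts (median 0.21), and 43.4% were higher and 32.3% lower in yDucts (median 0.24). Cyclic loess left 12 higher and 5 lower in Ducts and 11 higher and 7 lower in yDucts, beside 25.7% higher and 36.4% lower of the genes tested in Ducts, and 26.9% higher and 35.9% lower in yDucts. Amot, which encodes the YAP-binding scaffold angiomotin, rose by 5.24 and 5.05, Ajuba, a LIM protein that binds LATS, by 5.04 and 4.49, and Taok1, a kinase upstream of MST, by 3.64 and 3.52. Between yDucts and Ducts 0 of the 21 passed (limma), where 2.01% of all genes were higher and 0.881% lower at the adjusted threshold. An unadjusted p under 0.05 (limma) was found for 4 of the 21, a share that was not counted over all genes. Without Ducts A and B, 4 of the 21 were lower in yDucts, and over all genes 8.05% were then higher and 5.41% lower.

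Of 22 genes listed as targets of YAP and TEAD, 17 were higher and 2 lower in Ducts, and 18 were higher and 3 lower in yDucts, with medians of 1.78 and 1.99. Amotl2, Lats2 and Ptpn14, higher in both organoids, were also on the Hippo list, so the counts of the lists share them. Over all genes tested, 42.4% were higher and 32.9% lower in Ducts, and 43.4% and 32.3% in yDucts. With cyclic loess 14 were higher and 4 lower in Ducts, and 13 were higher and 3 lower in yDucts. The shares over all genes were then 25.7% and 36.4% in Ducts, and 26.9% and 35.9% in yDucts. Ccn2, a secreted matricellular protein and a classical target, rose by 5.12 and 5.24, the largest rise among these targets in both organoids. In Ducts it was followed by Myof, a membrane repair protein (4.34), and Ankrd1, a nuclear ankyrin repeat protein (4.19). In yDucts it was followed by Axl, a receptor tyrosine kinase (4.94), and Myof (4.14). Ccdc80 was called lower in both organoids (-1.63 and -1.70), as was Tgfb2 (-0.77 and -0.46), and Nt5e was called lower in yDucts (-0.97). Ccn1 was not called in either organoid (-0.28 in Ducts and -0.355 in yDucts). Foxf2, a forkhead factor best known from mesenchyme, was the 1 target called between the organoids with all arrays. Without Ducts A and B, 2 of the 22 targets were higher and 3 lower, beside the 8.05% and 5.41% of all genes. Foxf2 was not above background in Ducts or Acini, and yDucts were at least 7.62-fold higher than Ducts and at least 5.64-fold higher than Acini (limma, adjusted p = 3.94e-06 and 1.10e-07). The stromal marker Vim was also higher in yDucts than in Ducts, but unlike Foxf2 it was above background in Acini (8.77 ± 0.52). The other 8 stromal markers were not called between the organoids. The part of Vim in the result was not tested.

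The other vestigial-like genes, cofactors of TEAD, were dim, with group means of 2.92 to 4.18. Vgll1 differed by -0.54 in Ducts and -0.52 in yDucts and was called lower, but it differed by 0.02 and 0.06 with cyclic loess. It lay near the 30th percentile of intensity: 3.80 beside 3.72 in Acini, 3.26 beside 3.21 in Ducts, 3.28 beside 3.20 in yDucts. Vgll2 was at least 2.01-fold lower in Ducts and 2.07-fold lower in yDucts, where it was not above background, and Vgll3 was not called. Of all genes tested, 32.9% were lower in Ducts and 32.3% in yDucts. Beside these shares 2 of the 4 family members, Vgll1 and Vgll2, were lower in each comparison with Acini as deposited. With quantile normalization or cyclic loess neither was called, and Vgll4 was the 1 that was. Of all genes, 35.3% to 36.4% were lower under these scalings.

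The genes whose profiles over the 12 arrays were nearest to a member's were found among 14989 others, by the root mean square difference of log2 values centred on each gene's mean. For Yap1 they were Rnaseh2a (0.11), 1600012H06Rik (0.11) and Ddx1 (0.11), for Wwtr1 Smchd1 (0.12), Khdc4 (0.13) and Gtpbp4 (0.13), and for Tead1 Hnrnpu (0.15), Trip10 (0.15) and Senp6 (0.16). For Tead2 they were Nbas (0.16), Pex11a (0.17) and Ybx2 (0.18), for Tead3 Guca1b (0.11), Mrap (0.13) and Rep15 (0.14), for Tead4 Plekha5 (0.17), Pcgf1 (0.20) and Nubp1 (0.21), and for Vgll4 Dgcr6 (0.10), Snupn (0.10) and Nfkbib (0.11). None of these is another member.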

How the data were processed

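Total RNA was labelled with biotin and read on 12 Affymetrix-type arrays. The deposited values are log2 intensities from RMA, per the labels, with 45101 probe sets; other settings were not stated. Genes were named from the platform annotation, and the Entrez ID of all 12 member probe sets gave the same symbol in RefSeq. Probe sets above the 30th percentile of their array on at least 4 arrays were tested (33436). One group-means model over all 12 arrays was fitted with limma 3.58.1 in R 4.3.3, and p-values were Benjamini-Hochberg adjusted over all probe sets tested in each of 3 comparisons, with 0.05 as threshold. A gene in a list was read by its brightest probe set. For folds given as at least a value, intensities under the 30th percentile of their array were raised to it. Within-array differences were compared by exact permutation, with the smaller tail doubled. Precision is limited by having 4 arrays a group. The fit was tested on simulated data.

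Named genes were all member probe sets, the VGLL genes, the 3 largest called differences of each pathway list in each comparison with Acini, called genes between organoids, and the 3 nearest profiles of each member. Vim, Cd68, Sox9, Cftr, Ccn1, the targets called lower, the genes on both lists and the markers at background were named after their values were seen. The members and lists were chosen with earlier results of these data known. Alternatives were other scalings, filters, probe set choices, array weights, a replicate block and each array left out. Control probe sets were read for RNA integrity.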

Additional observations from a re-analysis of the deposited data

Results flagged for a closer look

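In Acini, Tead2 on array C (9.77) stood apart from the other three arrays, with a gap of 0.867 of the group's range. In yDucts, Tead1 1429556_at on array B (9.74) stood apart in the same way, with a gap of 0.839 of the range. Both are past Dixon's 95% critical value for 4 samples, and 36 groups of 4 were examined, of which chance flags about 1 in 20. Without Acini C or without yDucts B the differences of these probe sets from Acini kept their direction and their call.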

How the results depend on the processing

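The differences of Wwtr1 1417818_at, Tead1 1429556_at and Tead2 from Acini kept direction and call under every alternative run. The counts against Acini were 8 of 12 probe sets in the main fit. They were 5 of 7 genes with 1 probe set per gene and with the mean of a gene's probe sets, which have fewer features by construction. With 1 probe set per gene, 11355 of all 14990 genes tested were called in Ducts and 11423 in yDucts, so these counts say little about the members. The 5 member genes called were Yap1, Wwtr1, Tead1, Tead2 and Tead4, except that with the mean of probe sets Tead4 was not called in yDucts and Tead3 was. Array weights called 9 members between yDucts and Ducts, beside 11754 of all 33436 probe sets tested. Quantile normalization let 7 of the within-array differences pass. The cause of either change was not tested. Cyclic loess turned Yap1 in Ducts against Acini to -0.0141 (1416487_a_at) and -0.00515 (1448363_at), and in yDucts it turned Wwtr1 1417817_a_at to -0.208, Vgll4 to -1.04 and Tead1 1423434_at to 0.188, where quantile normalization gave -0.120, -0.889 and 0.0565. Tead4 minus Tead1 turned to 0.376 and 0.465 with quantile normalization and to 0.400 and 0.479 with cyclic loess in Ducts and yDucts. Centring arrays and array weights turned Vgll4 in Ducts against Acini to 0.195 and 0.147 and Tead4 1460683_at to 0.095 and 0.161, and weights turned Vgll4 between organoids to -0.142. With 1 array left out, differences that were not called changed sign: in Ducts against Acini Tead1 1423434_at ranged from -0.123 to 0.152, Tead4 1460683_at from -0.323 to 0.0417 and Vgll4 from -0.138 to 0.0817, in yDucts against Acini Vgll4 ranged from -0.116 to 0.104, and between organoids Vgll4 ranged from -0.0658 to 0.0842 and Tead4 minus Tead1 from -0.109 to 0.231. Chosen after seeing the data, leaving out Ducts A and B turned Vgll4 to 0.135 and Tead4 1460683_at to 0.265 against Acini and Vgll4 to -0.128 between organoids, and leaving out Ducts C and D turned Tead1 1423434_at to -0.125 against Acini and the Tead4 probe sets to 0.105 and 0.155 between organoids.

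The two-sided form of the permutation p was also settled after results were seen. With all arrays both forms gave the same count of 0. With Ducts A or Ducts B left out, counting absolute differences let 7 of the 12 within-array differences pass, where doubling the smaller tail let 0 pass, since its smallest p for 3 against 4 arrays is 0.0571.

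The letters did not pair the arrays: correlations of same-letter deviations ran from -0.302 to 0.112. The replicate block left 8, 8 and 0 calls and 0 within-array differences, for which its smallest p is 0.125.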
